A study of Mus musculus with 8 samples.

Results

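The enzymes that modify and conjugate foreign compounds were examined in the colon of bone marrow chimeric mice, family by family: the cytochromes P450 of families 1 to 4 (Cyp), the cytosolic glutathione S-transferases (Gst), the UDP-glucuronosyltransferases (Ugt) and the sulfotransferases (Sult). Earlier results of these data were known when members were chosen. The rule took protein-coding genes by symbol, with no use of the difference between genotypes. The annotation holds 148 such genes, 97 of which were in the table of normalized counts. A mean of at least 10 normalized counts over the 8 libraries was reached by 79 of them, among 19127 genes tested in all: 40 Cyp, 23 Gst, 7 Ugt and 9 Sult members.

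Cytochromes P450 add an oxygen to lipophilic molecules, a reaction called phase I, with electrons passed on by P450 oxidoreductase. Glutathione S-transferases, UDP-glucuronosyltransferases and sulfotransferases then attach glutathione, glucuronic acid or sulfate, called phase II, and the conjugates leave the cell through efflux transporters. In the intestine these enzymes sit mostly in the epithelium, where they also act on the body's own steroids, bile acids and fatty acids. Nuclear receptors such as PXR (Nr1i2), CAR (Nr1i3) and FXR (Nr1h4), the aryl hydrocarbon receptor (Ahr) and the oxidative stress factor NRF2 (Nfe2l2) are known regulators of these genes.

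The mice were male C57BL/6JRj wild-type recipients, lethally irradiated (1100 rad) at 7 weeks of age. They were grafted with bone marrow of male donors, aged 9 to 11 weeks, that were either penk-/- (B6.129-Penk-rs tm1Pig/J, without proenkephalin) or wild type. The 2 groups are called Penk-/- and Penk+/+ chimeras after their donors. The colon was sampled 18 to 21 weeks after the graft, and RNA of biopsies of 4 Penk-/- and 4 Penk+/+ chimeras was sequenced, with 1 library per mouse and replicates numbered 1 to 4 in each group. All mice shared the irradiation and the graft. Only cells derived from the grafted marrow carried the deletion, and the epithelium, the muscle and the enteric neurons were wild type in both groups. The comparison therefore asks whether proenkephalin deletion in hematopoietic cells went with other levels of these enzymes in the whole colon wall.

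Libraries held 33.1 M to 50.7 M reads on genes, as estimated from the steps between low values. Normalized counts of Penk were 453, 512, 616 and 531 in replicates 1 to 4 of the Penk-/- chimeras and 473, 496, 560.1 and 636 in those of the Penk+/+ chimeras. The groups overlapped, so that whole-colon Penk does not check the labels in mice whose own tissue is wild type. Penk-/- replicate 3 and Penk+/+ replicate 4 stood apart from the other libraries, with 105658 and 111024 normalized counts of Pbsn, a gene of the male accessory glands, against 0 to 13425 in the other 6. All 8 markers of epithelium and all 5 distal hindgut Hox genes of the marker lists were expressed in every library. The summed count of the epithelium markers was 343339.6 to 458010.0 in Penk-/- and 423213 to 490785 in Penk+/+ chimeras. Over the marker lists, the median log2 fold change between the genotypes was -0.15 for epithelium, -0.30 for surface colonocytes, -0.07 for goblet cells, -0.12 for small intestine, 0.11 for smooth muscle, 0.21 for fibroblasts, 0.11 for endothelium, 0.28 for macrophages, 0.83 for adipocytes, 0.37 for liver, 0.03 for the accessory glands and -0.04 for the Hox genes. The liver median rests on 2 of 6 listed genes, Ttr and Alb, with Alb at a mean of 57.1 normalized counts. Ttr was the lone marker with an unadjusted limma p below 0.05. In bulk tissue, fewer cells of a type and less RNA per cell cannot be told apart.

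The members spanned a wide range of levels (the plot of levels by family). Levels of different genes are given as the mean normalized count per kb of exon. Above 1000 on that scale were 16 members, and 21 were below 20. Cyp2c55, which oxidizes arachidonic acid, was the most abundant, at 16946 per kb (range over libraries 10572 to 22216). Cyp2d34 followed at 7086 (4139.5 to 10029), and the ranges of the first and second member did not overlap. Ugt2b34 (5004, range 4278 to 5992), Sult1d1 (4829.5, range 3371 to 5902) and Sult1b1 (3873, range 2730.2 to 4732) came next, and the ranges of these and of Cyp2d34 overlapped their neighbours in this order. The most abundant Gst members were Gsto1 at 3085, Gstp1 at 3057 and Gstm1 at 2890.3 per kb, which did not differ beyond their ranges (2724 to 3357, 2672 to 3718 and 2555 to 3186). Within each family, few genes took most of the normalized counts. Cyp2c55, Cyp2d34 and Cyp2d12 held 61.5% of those of the Cyp members, Ugt2b34 alone 81.1% of those of the Ugt members, Sult1d1, Sult1b1 and Sult1a1 92.7% of those of the Sult members, and Gsto1, Gstm1 and Gstp1 56.7% of those of the Gst members. The Ugt share is uncertain, because 56.65% to 77.2% of the exon bases of the Ugt1a members are shared with other Ugt1a genes. If reads in shared exons were left out of the counts, the levels of the Ugt1a members are too low and this share too high. How such reads were counted is not given in the sources used here.

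**Figure D1:**
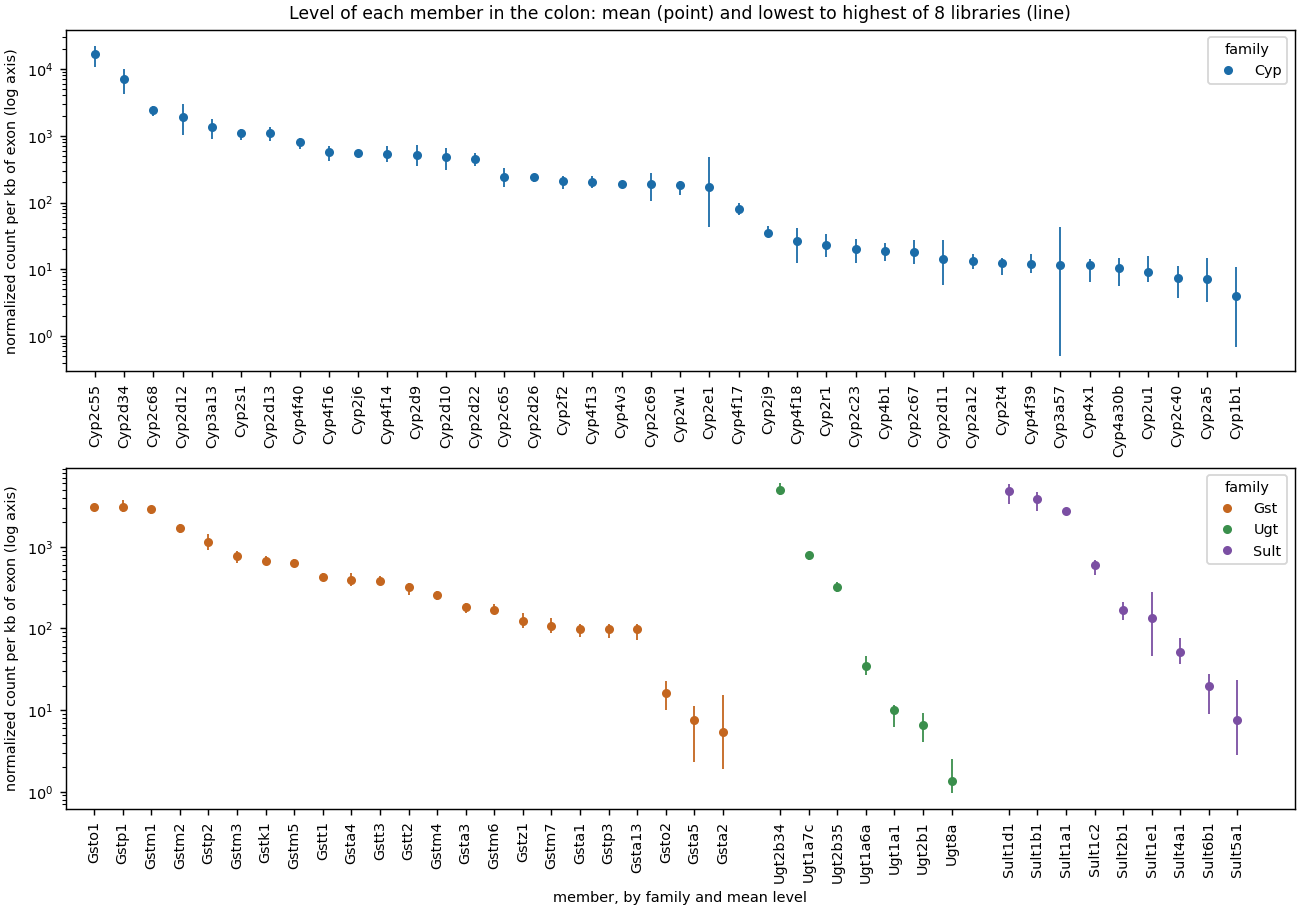
Mean normalized count per kb of exon of each of the 79 members (points, log axis), with the lowest and highest of the 8 libraries (lines), by family. Cyp2c55 stands highest at 16946 per kb and Ugt8a lowest at 1.37, and the lines of Cyp3a57, Cyp2e1, Cyp1b1, Gsta2 and Sult5a1 are among the longest.

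The genotypes were compared with limma on log2(normalized count + 1), and all log2 fold changes or differences below are on that scale, Penk-/- minus Penk+/+ chimeras, ± the standard error (SE), with p-values adjusted by Benjamini-Hochberg over all genes tested. At an adjusted p below 0.05, 0 of the 79 members and 0% of the 19127 genes tested were called, and the smallest adjusted p of a member was 0.34 (Gsta3). The paper, with DESeq2 and limits on both fold change and FDR, called a few genes between the same groups. The 0% therefore holds for limma on these values. An unadjusted limma p below 0.05 was found for 9 members, against 9.63% of all genes. Of these, 7 were lower in Penk-/- chimeras (5.33% of all genes) and all 7 were Cyp genes: Cyp2d12, Cyp2d34, Cyp2d9, Cyp2c23, Cyp3a13, Cyp2s1 and Cyp2a5. The 2 that were higher (4.3% of all genes) were the Gst members Gsta3 and Gstm2. At 11.4%, the share among the members was close to that of all genes. The same 9 were found with voom weights, which also called 0 members after adjustment. Cyp2a5 was the lone member with a mean below 10 in one of the groups, and passed the filter through the Penk+/+ chimeras alone. With a mean of at least 50 in place of 10, which leaves it out, 2 members were higher and 6 lower (13.1% of the members tested, against 10.7% of all genes). The count depended on single libraries. It was 16 without Penk-/- replicate 1, or 20.3% of the members against 11.6% of all genes. It was 5 (6.33%) without Penk-/- replicate 2, Penk-/- replicate 3 or Penk+/+ replicate 2, against 7.74%, 7.83% and 7.51% of all genes. Without Penk-/- replicate 4 or Penk+/+ replicate 1 it was 4 (5.06%), against 7.41% and 7.23%.

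The groups did not overlap for 3 members, against 5.63% of all genes. Gsta3 was higher in all 4 Penk-/- chimeras than in every Penk+/+ chimera (2.89% of all genes), and Cyp2d12 and Cyp2c23 were lower (2.74%). This count was 8 without Penk-/- replicate 1, 7 without Penk-/- replicate 3 or Penk+/+ replicate 4, and 5 without Penk-/- replicate 4. Among all genes, the share was 12%, 8.71%, 11.2% and 7.83% without these libraries, in that order. No member had an absolute log2 fold change above 1. Above 0.5 were 5 members, all of them Cyp genes (6.33%, against 5.9% of all genes): Cyp2a5 (-0.91), Cyp3a57 (-0.89), Cyp2d12 (-0.78), Cyp2c23 (-0.60) and Cyp1b1 (0.72).

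By family, the median log2 fold change was -0.03 over the 40 Cyp members, 0.03 over the 23 Gst members, 0.03 over the 7 Ugt members and -0.17 over the 9 Sult members, beside 0.01 over all genes tested. Members stood on both sides of 0 in each family, with 19 Cyp, 12 Gst, 4 Ugt and 3 Sult members above it. The fitted 95% interval lay within -0.5 and 0.5 for 36 members and within -1 and 1 for 65, so that for most of them a log2 difference of 1 in either direction lay outside the interval. The members' total was 244270.5, 202886, 168845 and 213237 in replicates 1 to 4 of the Penk-/- chimeras and 252445, 215086, 191453 and 238511 in those of the Penk+/+ chimeras, or 0.458% to 0.611% of a library. Totals of the groups overlapped in each family.

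**Figure D2:**
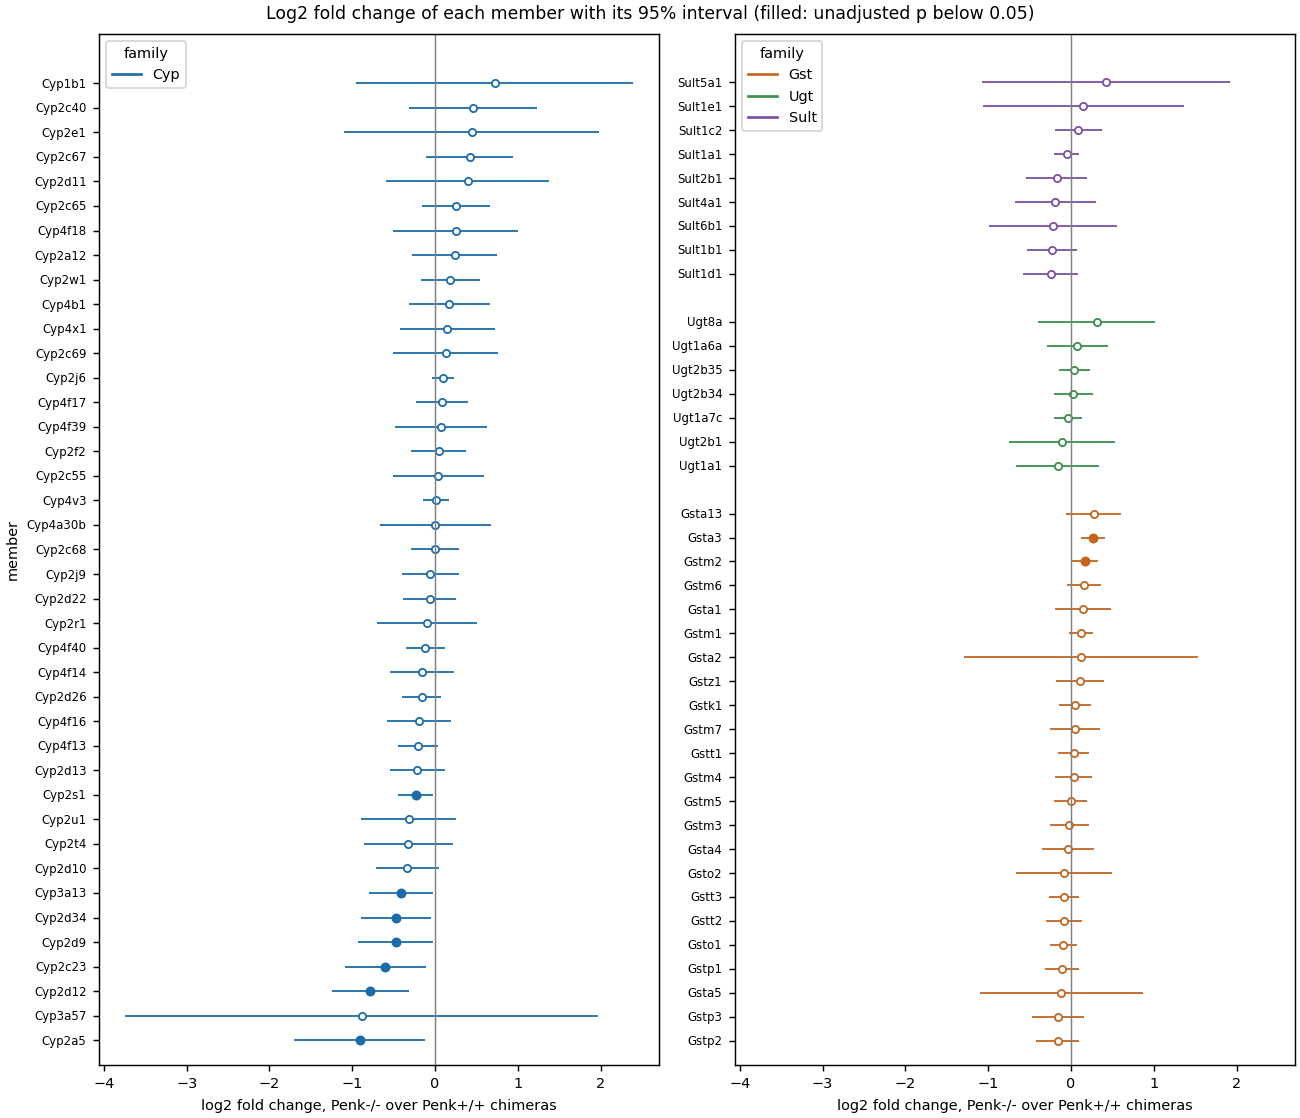
Log2 fold change of each member between 4 Penk-/- and 4 Penk+/+ chimeras (points) with its 95% interval from limma (lines), by family, with filled points for the 9 members at an unadjusted p below 0.05. The 7 filled Cyp points lie below 0 and the 2 filled Gst points, Gsta3 at 0.27 and Gstm2 at 0.16, above it.

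The Cyp2d members lie within 424 kb of chromosome 15 (chr15:82254727-82678509, GRCm39), and code for relatives of the human enzyme that metabolizes many antidepressants, opioids and beta blockers. Because they resemble each other, reads of one can be counted on another, and how far they resemble each other bears on each value below. The coding sequence of Cyp2d12 (chr15:82439246-82444604, plus strand) was 92.1% identical to that of Cyp2d9 and 88.8% identical to that of Cyp2d34. Of the stretches of 100 bases in its transcript, 3.69% were found in a transcript of another gene, against 16.3% in Cyp2d10, 9.86% in Cyp2d9 and 0.13% in Cyp2d34. The first 90 coding bases of the 8 members, from GENCODE M39 on GRCm39, are given here to show where the copies differ at their start. Bases that are not those of Cyp2d12 are in capitals.
Cyp2d12: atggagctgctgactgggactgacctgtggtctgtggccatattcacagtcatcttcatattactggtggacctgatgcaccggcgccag
Cyp2d13: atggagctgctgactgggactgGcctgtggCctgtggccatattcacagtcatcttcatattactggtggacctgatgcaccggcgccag
Cyp2d9: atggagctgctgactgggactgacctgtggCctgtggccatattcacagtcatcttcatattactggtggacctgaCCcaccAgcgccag
Cyp2d11: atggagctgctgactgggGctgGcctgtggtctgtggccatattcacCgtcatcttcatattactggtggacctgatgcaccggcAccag
Cyp2d10: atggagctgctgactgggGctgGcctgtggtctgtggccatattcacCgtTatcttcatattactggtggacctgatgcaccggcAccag
Cyp2d34: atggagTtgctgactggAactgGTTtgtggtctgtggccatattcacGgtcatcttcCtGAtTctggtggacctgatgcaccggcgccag
Cyp2d26: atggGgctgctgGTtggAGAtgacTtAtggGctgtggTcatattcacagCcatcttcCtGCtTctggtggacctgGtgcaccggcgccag
Cyp2d22: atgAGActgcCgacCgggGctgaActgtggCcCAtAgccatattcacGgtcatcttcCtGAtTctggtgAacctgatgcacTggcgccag
Cyp2d13 differed from Cyp2d12 at 2 of these bases, Cyp2d9 and Cyp2d11 at 4, Cyp2d10 at 5, Cyp2d34 at 10, Cyp2d26 at 16 and Cyp2d22 at 18. Over the whole coding sequence the order was another. Identity to Cyp2d12 was 83.9% for Cyp2d13, below 92.1% for Cyp2d9, 91.1% for Cyp2d10, 90.7% for Cyp2d11 and 88.8% for Cyp2d34.

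Cyp2d12 had the second smallest p of the members. Its normalized counts were 7127, 5777, 3997 and 4933 in replicates 1 to 4 of the Penk-/- chimeras and 11222, 7177, 7614 and 11574 in those of the Penk+/+ chimeras. Every Penk-/- chimera was below every Penk+/+ chimera, with 7127 in the highest Penk-/- and 7177 in the lowest Penk+/+ library (log2 difference -0.78 ± 0.21 SE, limma adjusted p = 0.341). The exact permutation test over the 70 assignments of libraries (two-sided) gave p = 0.0286, the smallest it allows. Over the alternatives, its log2 fold change ranged from -0.92 to -0.53 and its adjusted p in limma from 0.146 to 0.628. Cyp2d34, the most abundant of the cluster, had 23557, 16953, 12017 and 17294 in replicates 1 to 4 of the Penk-/- chimeras and 29115, 20970.5, 21228 and 23427 in those of the Penk+/+ chimeras. Its groups overlapped, because Penk-/- replicate 1 was above 3 of the Penk+/+ chimeras (log2 difference -0.47 ± 0.19 SE, limma adjusted p = 0.474).

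In the order of the genes along the chromosome, the log2 fold changes were -0.06 for Cyp2d22, 0.39 for Cyp2d11, -0.34 for Cyp2d10, -0.48 for Cyp2d9, -0.78 for Cyp2d12, -0.47 for Cyp2d34, -0.21 for Cyp2d13 and -0.16 for Cyp2d26. The values furthest below 0 were those of the neighbours Cyp2d9, Cyp2d12 and Cyp2d34, in the middle of the cluster. Cyp2d9, which hydroxylates testosterone, had 1207 ± 249.7 with Penk-/- marrow, against 1699 ± 444 with Penk+/+ marrow (SD, n = 4; log2 difference -0.48 ± 0.20 SE, limma adjusted p = 0.494). Cyp2d11 was the member of the cluster with the fewest counts, from 9.20 to 43.1 per library, and the lone one above 0. The median over the 8 was -0.27, with 7 of them below 0. The cluster's total was 41979.9, 31597, 23606 and 31701 in replicates 1 to 4 of the Penk-/- chimeras and 53057, 38085, 37642 and 47719.7 in those of the Penk+/+ chimeras, with overlapping groups and a log2 ratio of the group means of -0.45. Without Penk-/- replicate 3 and Penk+/+ replicate 4, the values were -0.53 for Cyp2d12, -0.30 for Cyp2d34 and -0.29 for Cyp2d9 (limma adjusted p = 0.49, 0.645 and 0.75). The rest of the cluster was then at -0.17 (Cyp2d10), -0.11 (Cyp2d26), -0.05 (Cyp2d13), 0.12 (Cyp2d22) and 0.82 (Cyp2d11). Cyp2d22 was thus also above 0, and each of the others was higher than with all libraries. Cyp2d34-ps, a pseudogene of the cluster and no member, had 51.2 ± 36.7 normalized counts with Penk-/- marrow, against 119 ± 31.5 with Penk+/+ marrow (log2 difference -1.37, limma adjusted p = 0.353). Its groups overlapped. The 2 other Cyp2d pseudogenes tested had log2 differences of -0.10 (Cyp2d37-ps, 696 ± 143 against 737 ± 123) and -0.09 (Cyp2d33-ps, 18.4 ± 10.1 against 20.9 ± 17.2). Outside the cluster, the pseudogenes Cyp2c52-ps and Gstm2-ps1 were higher in Penk-/- chimeras, without overlap of the groups (2.89% of all genes). Their log2 differences were 1.02 and 0.66 (limma adjusted p = 0.372 and 0.434), at low counts, and that of Cyp4f41-ps was -0.30.

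**Figure D3:**
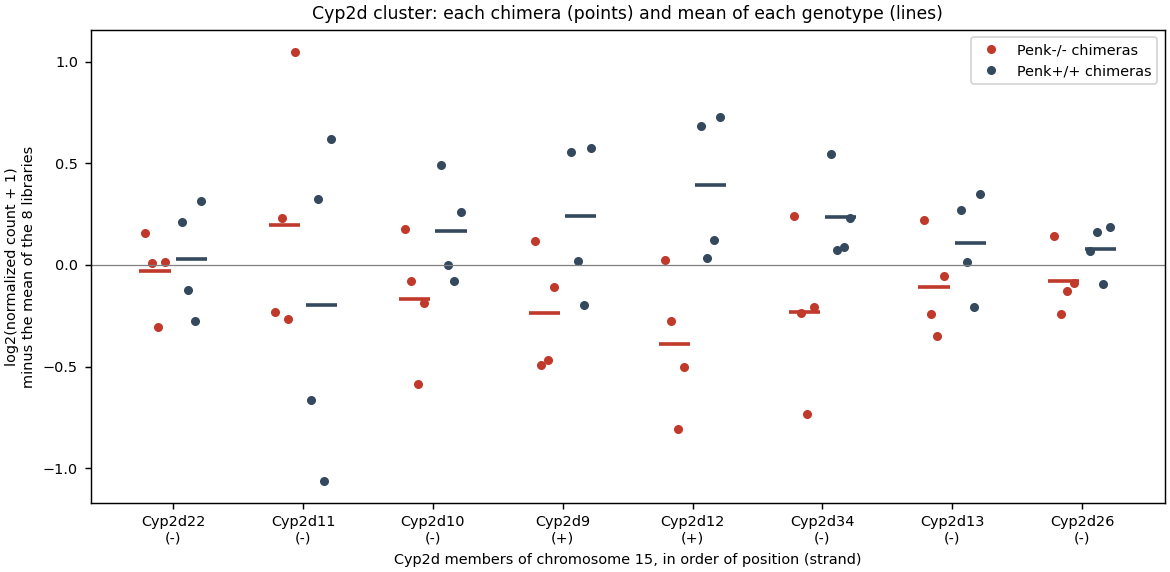
Log2(normalized count + 1) of the 8 Cyp2d members in each chimera, minus the mean of the 8 libraries (points), with the mean of each genotype (horizontal lines), in the order of the genes on chromosome 15. The genotype means lie furthest apart for Cyp2d12, whose log2 fold change was -0.78, and in Cyp2d11, the least expressed, the Penk-/- mean lies above the Penk+/+ mean.

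The 250 bases before the annotated start of the representative GENCODE transcript of the 3 Cyp2d members with the lowest log2 fold changes are given from GRCm39, to show the region around which the motifs named below were sought, for the members with the largest differences in the cluster. Capitals mark TATAAA on either strand, the core of the TATA box.
Cyp2d9 (chr15:82336285-82336534, plus strand): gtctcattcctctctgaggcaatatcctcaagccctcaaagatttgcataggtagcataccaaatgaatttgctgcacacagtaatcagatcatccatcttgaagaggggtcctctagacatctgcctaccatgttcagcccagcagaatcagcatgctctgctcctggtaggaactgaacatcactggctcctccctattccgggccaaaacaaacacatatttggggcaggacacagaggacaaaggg
Cyp2d12 (chr15:82438996-82439245, plus strand): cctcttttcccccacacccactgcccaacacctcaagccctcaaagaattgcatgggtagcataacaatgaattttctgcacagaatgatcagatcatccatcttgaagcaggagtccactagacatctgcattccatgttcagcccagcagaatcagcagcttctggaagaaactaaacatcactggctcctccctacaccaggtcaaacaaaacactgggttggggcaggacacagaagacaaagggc
Cyp2d34 (chr15:82505147-82505396, minus strand): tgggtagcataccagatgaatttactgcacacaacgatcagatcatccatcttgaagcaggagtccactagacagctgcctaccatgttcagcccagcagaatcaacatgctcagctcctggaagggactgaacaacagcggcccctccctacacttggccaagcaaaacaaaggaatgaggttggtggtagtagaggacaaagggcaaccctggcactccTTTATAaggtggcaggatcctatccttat
TATAAA was in this window in 4 of the 8 Cyp2d members, and in 11.9% of the windows of all 21770 protein-coding genes. In Cyp2d9, Cyp2d12 and Cyp2d26 it lay 15, 14 and 18 bases after the annotated start, just outside the window. Cyp2d22 had none in the window or in the 100 bases after it. Of the other motifs searched on both strands, GCGTG, the core bound by the aryl hydrocarbon receptor, was in the window of 14 of the 79 members (17.7%) and of 31.2% of all genes, and in 0 of the 8 Cyp2d windows. The antioxidant response core TGACNNNGC was in 5.06% of the members' and 9.69% of all windows. The D-box (TTACGTAA or TTATGTAA), bound by the clock output factors Dbp, Tef and Hlf, was in 1 member's window (Ugt2b1) and in 0.937% of all windows.

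The 7 Cyp2c members, which oxidize drugs and arachidonic acid, lie on chromosome 19. In 5 of them the upstream window held CAAAGTCCA, a sequence bound by the nuclear receptor HNF4A, which was in 0.372% of all windows. These 5 were the Cyp members with that sequence, and no Gst, Ugt or Sult window held it. It is shown in capitals with 15 bases on each side, because Cyp2c40, Cyp2c67, Cyp2c68 and Cyp2c69 are near copies of one another and their shared sequence extends into the region before the gene.
Cyp2c40 (chr19:39801280-39801318, minus strand, GRCm39): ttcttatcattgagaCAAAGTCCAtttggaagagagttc
Cyp2c65 (chr19:39049319-39049357, plus strand, GRCm39): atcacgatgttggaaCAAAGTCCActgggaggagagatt
Cyp2c67 (chr19:39637588-39637626, minus strand, GRCm39): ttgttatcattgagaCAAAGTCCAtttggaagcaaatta
Cyp2c68 (chr19:39729599-39729637, minus strand, GRCm39): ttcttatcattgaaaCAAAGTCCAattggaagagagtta
Cyp2c69 (chr19:39875265-39875303, minus strand, GRCm39): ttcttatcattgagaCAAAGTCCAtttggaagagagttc
The coding sequences of Cyp2c40, Cyp2c67, Cyp2c68 and Cyp2c69 were 96.5% to 98.1% identical. Between 19.2% and 36.3% of the stretches of 100 bases in their transcripts also occurred in another gene, so that their counts are uncertain.

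Cyp2c55, the most abundant of all members, had normalized counts of 55362, 39246, 28606 and 47694 in replicates 1 to 4 of the Penk-/- chimeras and 52498, 42431, 26345 and 45652 in those of the Penk+/+ chimeras. The groups overlapped over nearly their whole range, and the log2 difference was 0.04 ± 0.24, with a 95% interval from -0.51 to 0.59. Cyp2c68 had 7399, 6149.8, 5252 and 6698 in replicates 1 to 4 of the Penk-/- chimeras and 7167, 6054, 5184 and 7179 in those of the Penk+/+ chimeras. It was also alike in range in both groups (log2 difference 0.00 ± 0.13). Cyp2c23, an arachidonic acid epoxygenase, was far less expressed, with 32.3, 45.8, 30.5 and 51.9 in replicates 1 to 4 of the Penk-/- chimeras and 53.5, 64.7, 52.1 and 71.2 in those of the Penk+/+ chimeras. All 4 Penk-/- libraries were below every Penk+/+ library, though the highest of the former, 51.9, and the lowest of the latter, 52.1, nearly met (log2 difference -0.60 ± 0.22 SE, limma adjusted p = 0.452; two-sided exact permutation over the libraries, p = 0.0286). Gm59370, an antisense gene, overlaps 24.9% of the exon bases of Cyp2c23, and the strand setting of the counting is not given in the sources used here. Without the pair of libraries highest in Pbsn, its log2 fold change was -0.40 (limma adjusted p = 0.674). The other 4 were above 0: Cyp2c40 (0.46), Cyp2c67 (0.42), Cyp2c65 (0.25) and Cyp2c69 (0.13), with limma adjusted p from 0.622 to 0.92. The Cyp2c median was 0.13.

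Of the remaining Cyp genes, 3 had an unadjusted p below 0.05. Cyp3a13, a drug-metabolizing P450 of the intestinal epithelium, had 3818 ± 915 with Penk-/- marrow, against 5023 ± 822 with Penk+/+ marrow (SD, n = 4), with 1 Penk-/- chimera at 5054 above the 2 lowest Penk+/+ chimeras (log2 difference -0.41 ± 0.17 SE, limma adjusted p = 0.488). Cyp2s1, which is expressed in epithelia and oxidizes retinoic acid, had 5019 ± 668 with Penk-/- marrow, against 5879.8 ± 359 with Penk+/+ marrow (log2 difference -0.24 ± 0.10 SE, limma adjusted p = 0.479). Cyp2a5, a coumarin hydroxylase, was close to the lower limit of counts, with 9.48 ± 1.93 with Penk-/- marrow, against 19.9 ± 8.87 with Penk+/+ marrow (log2 difference -0.91 ± 0.35 SE, limma adjusted p = 0.459). The 7 Cyp4f members, which hydroxylate leukotrienes and fatty acids, had log2 fold changes from -0.20 (Cyp4f13) to 0.25 (Cyp4f18), with a median of -0.12. Cyp2j6 and Cyp4v3 varied least between mice among the Cyp members, with a coefficient of variation over the 8 libraries of 5.64% and 4.77% beside a median of 22.7% in the family, and had log2 fold changes of 0.10 and 0.01 (95% intervals -0.04 to 0.23 and -0.15 to 0.17). Cyp1a1, the classical target of the aryl hydrocarbon receptor, was below the limit in the colon, at 3.73 to 13.1 normalized counts per library.

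Gst members varied less between mice, with a median coefficient of variation of 10.5% (all genes 14.4%). Their total was 42091, 42412, 39160.2 and 39956 in replicates 1 to 4 of the Penk-/- chimeras and 40359, 39611, 39199.7 and 44280.5 in those of the Penk+/+ chimeras, with a mean of 40905 ± 1594 and 40862 ± 2329 (SD, n = 4). Gsta3, an alpha-class transferase that detoxifies the aflatoxin epoxide in mice, had the smallest p of the members and was 20.3% higher on the fitted scale. Its normalized counts were 1163, 1096, 1177 and 1092 in replicates 1 to 4 of the Penk-/- chimeras and 889.9, 976, 902 and 996 in those of the Penk+/+ chimeras. All 4 Penk-/- libraries lay above every Penk+/+ library (log2 difference 0.27 ± 0.07 SE, limma adjusted p = 0.34; two-sided exact permutation over the libraries, p = 0.0286, which is the lowest possible). Over the alternatives, its log2 fold change ranged from 0.24 to 0.29 and its adjusted p in limma from 0.195 to 0.628. Gsta3 (chr1:21310806-21335885, plus strand, GRCm39) shared no stretch of 100 bases with another gene, and 8.68% of its exon bases overlap the antisense gene Gm28836. The bases before its start are given because they hold the antioxidant response core, TGACNNNGC, in capitals, which NRF2 binds.
Gsta3 (chr1:21310556-21310805, plus strand): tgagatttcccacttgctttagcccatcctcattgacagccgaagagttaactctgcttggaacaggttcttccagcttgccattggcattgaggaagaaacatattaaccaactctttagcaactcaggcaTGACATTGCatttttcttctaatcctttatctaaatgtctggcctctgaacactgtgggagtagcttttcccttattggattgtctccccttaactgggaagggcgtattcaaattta
The match began 118 bases before the annotated start. The NRF2 gene itself, Nfe2l2, had a log2 fold change of 0.11 (limma adjusted p = 0.71).

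**Figure D4:**
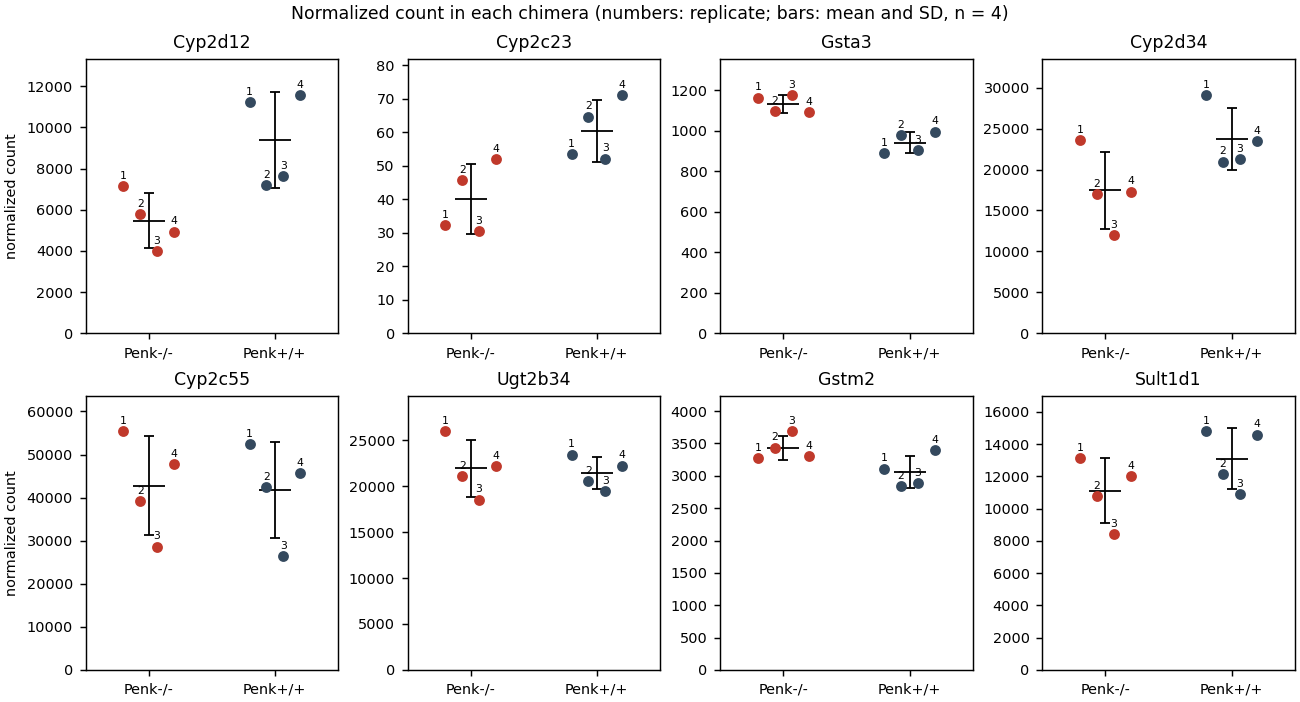
Normalized count of 8 members in each chimera (points, numbered by replicate), with the mean and SD of each group (n = 4, black bars) and axes from 0. Cyp2d12, Cyp2c23 and Gsta3 have groups that do not overlap, whereas Cyp2c55, Ugt2b34, Sult1d1, Cyp2d34 and Gstm2 overlap.

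The other alpha-class members with a mean above 100 normalized counts were Gsta4, which clears the lipid peroxidation product hydroxynonenal (log2 difference -0.04 ± 0.14), and the near copies Gsta1 and Gsta13 (0.15 ± 0.15 and 0.28 ± 0.15). Gsta1 and Gsta13 were 99.7% identical in their coding sequence, so that the separate count of each is uncertain. In the mu class, Gstm2 had 3277, 3434, 3686 and 3301 in replicates 1 to 4 of the Penk-/- chimeras and 3111, 2846, 2886 and 3397 in those of the Penk+/+ chimeras. The groups overlapped through Penk+/+ replicate 4 (log2 difference 0.16 ± 0.07 SE, limma adjusted p = 0.506), and 17.8% of its stretches of 100 bases also occurred elsewhere. Gstm1 had 7148, 8012, 7691 and 7467 in replicates 1 to 4 of the Penk-/- chimeras and 6427, 6949, 6962 and 7496 in those of the Penk+/+ chimeras. Its Penk+/+ replicate 4 was above 2 of the Penk-/- libraries (log2 difference 0.12 ± 0.06 SE, limma adjusted p = 0.581). Of the 7 Gstm members, 5 were above 0, with a median of 0.05.

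Gsto1, of the omega class, which reduces dehydroascorbate and methylated arsenic, had the highest mean level of the Gst members. Its values were 11881, 10616, 9639 and 10211 in replicates 1 to 4 of the Penk-/- chimeras and 11878, 10823, 10919 and 11384 in those of the Penk+/+ chimeras. The groups overlapped (log2 difference -0.09 ± 0.07, 95% interval -0.26 to 0.07). Gstp1, the pi-class enzyme, had 5075, 5105, 4362 and 4668 in replicates 1 to 4 of the Penk-/- chimeras and 4669.6, 5084, 4903 and 6071 in those of the Penk+/+ chimeras. Here too the groups overlapped (log2 difference -0.11 ± 0.09). Gstp1 and Gstp2 were 98.1% identical, and all 3 Gstp members were below 0, with a median of -0.16 and limma adjusted p from 0.696 to 0.759. The 3 theta-class members, Gstk1 and Gstz1, which isomerizes maleylacetoacetate in the breakdown of tyrosine, had log2 fold changes from -0.08 to 0.11.

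Of the Ugt members, 0 of 7 had an unadjusted p below 0.05. Ugt2b34, the Ugt member with the most normalized counts, had 25943, 21112, 18522 and 22184 in replicates 1 to 4 of the Penk-/- chimeras and 23416, 20502, 19445 and 22220.0 in those of the Penk+/+ chimeras. Penk-/- replicate 1 was the highest and Penk-/- replicate 3 the lowest of the 8, with all Penk+/+ chimeras between them, and the log2 difference was 0.03 ± 0.11 (95% interval -0.21 to 0.27). Ugt2b35 had 1274, 1574, 1384 and 1356 in replicates 1 to 4 of the Penk-/- chimeras and 1208, 1422, 1440.1 and 1354 in those of the Penk+/+ chimeras, again with overlapping groups (log2 difference 0.04 ± 0.08). The Ugt1a genes are built from separate first exons and common last exons, with 56.6% to 77.2% of the exon bases of the 3 members shared with other Ugt1a genes, so that their counts are uncertain. Ugt1a7c had 3533, 3646, 2921 and 3456 in replicates 1 to 4 of the Penk-/- chimeras and 3546, 3369, 3332 and 3618 in those of the Penk+/+ chimeras. The log2 difference was -0.04 ± 0.08. Ugt1a1, which conjugates bilirubin, had 20.2, 30.9, 37.1 and 34.2 in replicates 1 to 4 of the Penk-/- chimeras and 29.9, 35.2, 34.8 and 34.3 in those of the Penk+/+ chimeras. Its lowest and highest libraries were both Penk-/- (log2 difference -0.16 ± 0.22). Ugt8a makes the galactolipid of myelin rather than conjugating drugs. It was at the lower limit of counts, with 12.1, 10.3, 17.4 and 26.5 in replicates 1 to 4 of the Penk-/- chimeras and 12.4, 15.2, 10.2 and 12 in those of the Penk+/+ chimeras, and its groups overlapped (log2 difference 0.31 ± 0.32).

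Of the Sult members, 0 of 9 had an unadjusted p below 0.05. Sult1d1, which sulfates catecholamines, had 13150.5, 10798, 8447 and 12010.1 in replicates 1 to 4 of the Penk-/- chimeras and 14790.4, 12144, 10885 and 14597 in those of the Penk+/+ chimeras. Penk-/- replicate 1 was above 2 of the Penk+/+ chimeras and Penk-/- replicate 4 above 1 of them (log2 difference -0.25 ± 0.15 SE, limma adjusted p = 0.64). Sult1b1, which acts on phenols and thyroid hormones, had 12778, 10128, 7920.4 and 10868 in replicates 1 to 4 of the Penk-/- chimeras and 13728, 11671, 11106 and 11689 in those of the Penk+/+ chimeras. Penk-/- replicate 1 was above 3 of the Penk+/+ chimeras, and the other 3 Penk-/- chimeras were below all of them (log2 difference -0.23 ± 0.13 SE, limma adjusted p = 0.64). Sult1a1, the general phenol sulfotransferase, had 8045, 8633, 7359 and 8313 in replicates 1 to 4 of the Penk-/- chimeras and 8684, 8406, 8672 and 7780.5 in those of the Penk+/+ chimeras. Here the log2 difference was -0.05 ± 0.07, with a 95% interval from -0.20 to 0.10. The 4 members Sult2b1, which sulfates cholesterol, Sult4a1, Sult6b1 and Sult1c2 had values of -0.17, -0.19, -0.22 and 0.09. The Sult total was 36517, 32014, 26238 and 33739 in replicates 1 to 4 of the Penk-/- chimeras and 39878, 34813, 32905 and 36538 in those of the Penk+/+ chimeras. The lowest was that of Penk-/- replicate 3, and the groups overlapped.

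Some members were highest in the 2 libraries with the most Pbsn. Penk-/- replicate 3 and Penk+/+ replicate 4 were the 2 highest libraries for 10 of the 79 members, against 8% of all genes: Cyp1b1, Cyp2e1, Cyp2u1, Cyp3a57, Cyp4f17, Gsta2, Gsta4, Gstz1, Sult1e1 and Sult5a1. They were named after their values were seen. Cyp3a57 and Gsta2 (4.09 to 8.01 in the other 6 libraries) reached the mean of 10 only through these 2 libraries. Their place in this count was thus partly set by the filter. Cyp3a57 had 68.3 in Penk-/- replicate 3 and 86.6 in Penk+/+ replicate 4, against 1.02 to 12.4 in the other 6. Cyp2e1, the ethanol-inducible P450, had 1353 in Penk-/- replicate 3 and 900.3 in Penk+/+ replicate 4, against 121 to 397 in the other 6. For Cyp1b1, which oxidizes estradiol and aromatic hydrocarbons, there were 77.8 in Penk-/- replicate 3 and 63.5 in Penk+/+ replicate 4, against 4.98 to 24.3 in the other 6. In each of these the 2 libraries were of opposite genotype, and the 95% interval of the log2 fold change included 0. Sult1e1, the estrogen sulfotransferase, had 347 in Penk-/- replicate 3 and 264 in Penk+/+ replicate 4, against 57.2 to 204 in the other 6, and Sult5a1 142 in Penk-/- replicate 3 and 83.2 in Penk+/+ replicate 4, against 17.4 to 38.7 in the other 6. The same 2 libraries were the highest in the summed adipocyte markers (14287 and 6413, against 1241 to 4362 in the others) and in the 3 accessory gland markers (209863 and 217825, against 54.2 to 27526). The part of either tissue in the values was not tested. Without both libraries, 8 members (10.1%) had an unadjusted p below 0.05, 4 higher and 4 lower, against 9.07% of all genes, and the groups did not overlap for 14, against 15.3% of all genes. The log2 fold change was then -1.07 for Cyp3a57, 0.40 for Cyp2e1, 0.86 for Cyp1b1, 0.07 for Sult1e1 and 0.31 for Sult5a1.

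**Figure D5:**
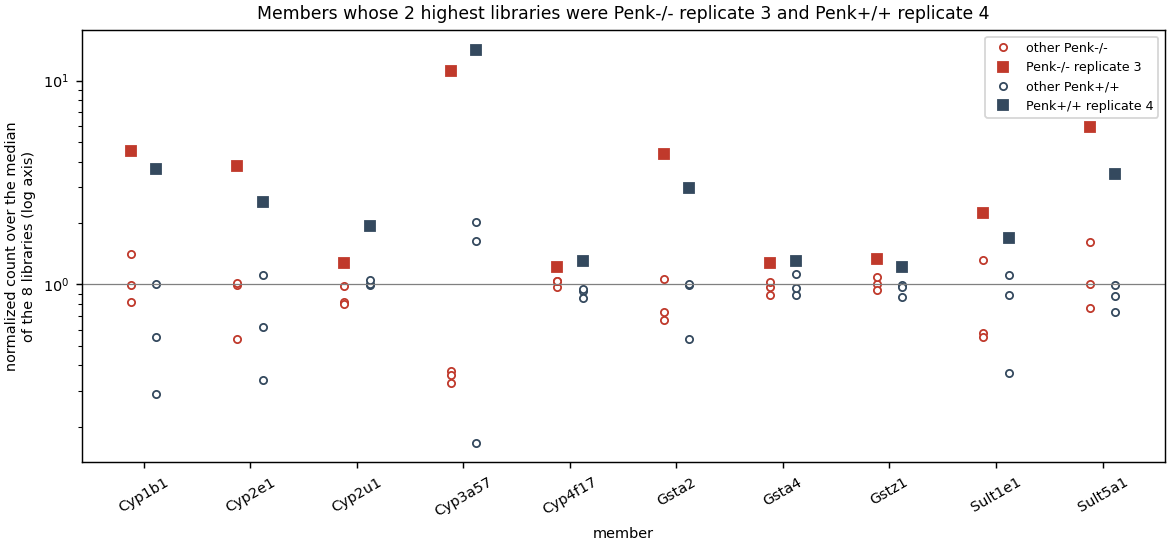
Normalized count of 10 members divided by the median of the 8 libraries (log axis), for Penk-/- replicate 3 and Penk+/+ replicate 4 (filled squares) and for the other 3 libraries of each group (open circles). Both squares lie above all circles for each member, and Cyp3a57 shows the widest gap.

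The Cyp total was 134686, 101809, 80350.5 and 112299 in replicates 1 to 4 of the Penk-/- chimeras and 143783, 115084, 94924 and 130235 in those of the Penk+/+ chimeras. It was lowest in Penk-/- replicate 3 and highest in Penk+/+ replicate 1, which were also the lowest and the highest in the epithelium score, the mean log2 value of the 8 epithelium markers centered on the 8 libraries (-0.29 and 0.19). The scores of the other libraries were 0.13, -0.07 and 0.02 in replicates 1, 2 and 4 of the Penk-/- chimeras and 0.00, -0.10 and 0.12 in replicates 2 to 4 of the Penk+/+ chimeras. The 6 markers of surface colonocytes summed to 150872 to 241112 in Penk-/- and 184918 to 267149.9 in Penk+/+ chimeras, with a median log2 fold change of -0.30. With the epithelium score as a covariate in limma, 11 members (13.9%) had an unadjusted p below 0.05, against 11.5% of all genes, with 6 higher and 5 lower in Penk-/- chimeras in place of 2 and 7, and 0 were called after adjustment. Cyp2d12 was then at -0.58, Cyp2d34 at -0.27 and Gsta3 at 0.26, whereas Cyp2c55 and Ugt2b34 moved to 0.30 and 0.14 (limma adjusted p = 0.228, 0.278, 0.261, 0.29 and 0.298). The part of epithelial RNA in the values was not tested further.

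The other genes of the pathway were taken from lists chosen by function. An unadjusted limma p below 0.05 was found for 0 higher and 2 lower of 11 xenobiotic-sensing factors, 0 higher and 0 lower of 4 electron donors of the P450s, 2 higher and 3 lower of 20 other phase I enzymes, 0 higher and 2 lower of 7 other conjugating enzymes, 1 higher and 0 lower of 7 enzymes and transporters of the conjugation cofactors and 0 higher and 1 lower of 7 efflux transporters. Among all genes tested, 4.3% were higher and 5.33% lower at that p. None of the listed genes was called after adjustment. Values below are Penk-/- against Penk+/+ chimeras, as mean ± SD. Of the sensing factors, the bile acid receptor Nr1h4 had 2076 ± 592 against 3025 ± 374 (log2 difference -0.58, limma adjusted p = 0.388) and Nr1i3, the receptor CAR, 37.9 ± 9.25 against 57.0 ± 10.7 (log2 difference -0.59, limma adjusted p = 0.473). Ahr, Nr1i2 and Hnf4a had log2 fold changes of 0.06, -0.14 and 0.05. P450 oxidoreductase, Por, which all of these P450s need, had 4686 ± 517 against 4795 ± 945 (log2 difference -0.02, limma adjusted p = 0.981). Of the other phase I enzymes, the carboxylesterases went in both directions, with 359.5 ± 78.5 against 564 ± 109 (log2 difference -0.65, limma adjusted p = 0.353) for Ces2b and 2889 ± 565 against 2338 ± 155 (log2 difference 0.29, limma adjusted p = 0.488) for Ces1d. Aldh1a1, a retinaldehyde dehydrogenase, had 2829 ± 351 against 2343 ± 207 (log2 difference 0.27, limma adjusted p = 0.443). The others of these lists below that p were Fmo4 (-0.35), Adh1 (-0.19) and Slc35b2, which carries activated sulfate into the Golgi (0.20). Among the conjugating enzymes outside the families, the arylamine acetyltransferase Nat2 had 1147 ± 193 against 1476 ± 225 (log2 difference -0.37, limma adjusted p = 0.455) and the prostaglandin D synthase Hpgds, itself a glutathione transferase of the sigma class, 820.3 ± 68.5 against 1119 ± 207 (log2 difference -0.43, limma adjusted p = 0.4). The glucuronide exporter Abcc2 had 152 ± 28.4 against 207 ± 11.6 (log2 difference -0.46, limma adjusted p = 0.397), whereas Abcb1a, which pumps out drugs, had 26854 ± 7490.3 against 29286 ± 7979.6 (log2 difference -0.12, limma adjusted p = 0.907).

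Of the 4 aryl hydrocarbon receptor targets outside the families, 0 had an unadjusted p below 0.05, with 89.1 ± 26.1 against 60.5 ± 26.8 (log2 difference 0.62, limma adjusted p = 0.591) for Ahrr and 879 ± 88.9 against 776 ± 72.9 (log2 difference 0.18, limma adjusted p = 0.6) for Nqo1. Of the 8 NRF2 targets, Hmox1 was higher and Srxn1 lower, with 218 ± 37.7 against 170.1 ± 15.8 (log2 difference 0.34, limma adjusted p = 0.501) and 3428 ± 344 against 4532 ± 321 (log2 difference -0.41, limma adjusted p = 0.323), and the median was 0.12. The clock output factors Dbp, Tef and Hlf, which drive many detoxification genes in liver and intestine, had log2 fold changes of -1.37, -0.39 and -0.32 (limma adjusted p = 0.323, 0.591 and 0.726). Over the 14 clock genes, Cry1 was higher and Dbp, Nr1d1 and Nr1d2 were lower at an unadjusted p below 0.05 (log2 differences 0.51, -1.37, -1.64 and -0.82), and 0 were called after adjustment. Beside these and the NRF2 targets, the share of all genes at that p was 4.3% higher and 5.33% lower. The time of day at which each mouse was sampled is not given in the sources used here, and its part in the members' values was not tested.

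The 18 genes of these families below the limit of a mean of 10 were not tested: 13 Cyp, 1 Gst and 4 Ugt genes, of which 8 had a value above 0 in every library. The highest in any library was Cyp2b19, with 23.1 normalized counts in Penk+/+ replicate 4 and 10.2 in Penk-/- replicate 3, and at most 2.49 elsewhere. Cyp3a25, Cyp2c70 and Cyp4a10, which are P450s of the liver, had means of 1.41, 2.12 and 4.64.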

How the data were processed

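RNA of colon biopsies from 4 Penk-/- and 4 Penk+/+ bone marrow chimeras was sequenced from poly-A selected, stranded, paired-end libraries. The authors aligned reads with STAR 2.7.8a to GRCm39 (Ensembl 107) after FastQC, and the deposited signal values are read counts per gene divided by size factors (DESeq2 1.30.0 is named in the methods). The strand setting of the counting is not given in the sources used here. Depth was estimated from the steps between low values, at 33.1 M to 50.7 M reads per library, and no other depth figure was used. From these values, genes with a mean of at least 10 were tested on log2(value + 1) with limma 3.58.1 (trend, two-sided, Benjamini-Hochberg) in R 4.3.3, which was tested on simulated data. Values of 1 gene were also compared by an exact permutation test over the 8 libraries. Names and coordinates came from GENCODE M39, which matched 25776 of 26008 identifiers. Coding sequences were aligned with mafft 7.526, and promoter windows were 250 bases before the start of each canonical transcript. Tables were made in pandas 2.3.3 and numpy 2.4.6 (Python 3.11.15), exact tests in scipy 1.17.1 and plots in matplotlib 3.10.9.

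Each library came from 1 mouse. No 2 libraries of a group agreed within sampling noise. Genes given in every library were the 3 members of each family with the highest mean count per kb of exon, the 2 of each family with the smallest limma p, and any member with an absolute log2 fold change above 1 or with groups that did not overlap (18 in all). Members and lists were chosen with earlier results of these data known. Alternatives were the pseudocount, the filter, the trend, quantile normalization, the epithelium score as a covariate, family totals in place of medians, a replicate block, leaving out the pair of libraries highest in Pbsn or each library in turn, and voom weights, the last chosen after seeing the data.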

Additional observations from a re-analysis of the deposited data

Results flagged for a closer look

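In Penk+/+ chimeras, Ugt1a1 had 29.87 normalized counts in replicate 1, against 34.3 to 35.18 in the other 3. The lowest library stood apart from the others of its group by more than Dixon's 95% limit for 4 samples, with a gap of 0.834 of the group's range. Of 44 groups examined, 1 passed this limit, and chance alone passes about 1 in 20. The counts of Ugt1a1 were low and its last exons are shared with other Ugt1a genes.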

How the results depend on the processing

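At an adjusted p below 0.05, 0 members were called under every alternative run, while the count over all genes was 1 with quantile normalization, 1 with the replicate block, 1 with the epithelium covariate and 0 to 6 when each library was left out in turn (6 without Penk-/- replicate 1). Members with an unadjusted p below 0.05 numbered 4 without the trend (9.33% of all genes) and 4 to 16 when each library was left out (7.23% to 11.6% of all genes; 16 without Penk-/- replicate 1), and members whose groups did not overlap numbered 14 without the pair of libraries highest in Pbsn, where 15.3% of all genes did not overlap, and 3 to 8 with each library left out. Same-numbered libraries did not deviate together over all genes (correlations from -0.321 to 0.145, and no library matched its own number best). These deviations also hold differences in tissue content, so whether the numbers pair anything cannot be told from them. The numbers were not used as pairs in the main comparison. With the replicate block 14 members (17.7%) had an unadjusted p below 0.05, against 15.36% of all genes. The 18 members given in every library had 322 values over the alternatives, all within 1 SD of the reported one, a wide limit with 4 mice per group. Within it, the log2 fold change ran from -0.63 to -0.27 for Cyp2d34 and from -0.17 to 0.305 for Cyp2c55. Of the 322 values, 21 had the other sign, in 8 members with reported differences from -0.16 to 0.04. Count tests in edgeR and DESeq2 on recovered reads were planned and not run. Counts near 10 per library limit what could be seen for the least expressed members.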
